A study of Mus musculus with 12 samples.

Results

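Long noncoding RNAs (lncRNAs) are transcripts that are not translated, and some of the best known act in the nucleus while others bind microRNAs or proteins in the cytoplasm. Malat1 sits in nuclear speckles, Neat1 builds paraspeckles, Norad binds Pumilio proteins, and Oip5os1 and Cdr1os belong to a brain network around the microRNA miR-7. Many others are host transcripts whose introns or exons carry microRNAs or small nucleolar RNAs. The well expressed lncRNAs of the mouse hypothalamus, the brain region that controls feeding, were described here. They are the genes typed as lncRNA with a mean normalized count of at least 500 in both deposited tables, without Meg3, Rian, Mirg, Kcnq1ot1, Airn and Peg13, which were left out by name. The rule selected 48 of the 978 lncRNAs, and of the 16438 genes of all types, that both tables listed. Since level and type chose the members, their being well expressed is no finding.

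Hypothalamus RNA came from 12 male C57BL/6J mice in 4 groups of 3. On chow there were WT mice (+/+) and Gpr75-/- mice, labelled 75ko, and the same 2 genotypes were sampled after 2 weeks of a high-fat diet (HFD). All mice were 8 weeks old, and HFD started at 6 weeks. GPR75 is a G protein–coupled receptor, and the Gpr75-/- mice are homozygous in every cell for a CRISPR/Cas9 null allele that shifts the reading frame and ends it early. The mice of the 2 diets are different animals, so the 2 genotype comparisons share no samples. The question put to each member was whether its level differed between Gpr75-/- and WT mice on either diet.

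Each table gave 1 mean normalized count per gene over the 6 mice of a diet and 1 value per genotype group, but no value of a single mouse. No source used here states the scale of the group values. From the values themselves they were read as log2 of a mean log2 level, rounded to 2 decimals, and every level and difference below rests on that reading. A genotype difference is given on the log2 scale together with the interval that this rounding allows. That interval is not a replicate error. No replicate test of a difference could be run, and "higher" or "lower" describes 2 group values. Group levels in normalized counts were placed on the scale of the table's mean and lie near a geometric mean of the 3 mice. The read depth of each mouse is unknown; the listed means summed to 18280462 on chow and 19420111 on HFD.

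Several facts of the whole series bear on these values. Gpr75 itself stood at 452 normalized counts in Gpr75-/- and 308 in WT mice on chow, and at 360 and 389 on HFD; a frameshift allele can leave its transcript in place, so this level does not check the labels, and the group names follow the labels throughout. All 17 hypothalamic marker genes were listed on both diets, led by Pmch, which encodes melanin-concentrating hormone. On chow 10 of them were higher and 7 lower in Gpr75-/- mice, with a median difference of 0.05, and on HFD 15 were higher and 1 lower, with a median of 0.28 and a summed level of 21360 against 18048 in WT mice. All 14 oligodendrocyte markers were lower in Gpr75-/- mice on both diets, with a median difference of -0.17 on chow and -0.27 on HFD, and their summed level was 193027 against 225910 in WT mice on chow and 216946 against 253744 on HFD. All 10 choroid plexus markers were higher on chow, with a median of 1.097, while 6 of them were listed on HFD, 3 higher and 3 lower, with differences from -1.41 to 0.18. All 5 red blood cell markers were higher on chow, with a median of 0.63, and lower on HFD, with a median of -0.20. The medians of the 5 neuron markers were 0.00 on both diets. The part of these cell types in any difference below was not tested, and in bulk tissue fewer cells of a type and less RNA per cell cannot be told apart.

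Sequences show what several members are. Cdr1os lies opposite Cdr1 on chromosome X and is the host of the circular RNA Cdr1as, while Oip5os1, known as Cyrano, pairs with miR-7 through an extended site. The mature miR-7a-5p is shown with its seed, bases 2 to 8, in capitals, and the sites are shown with the 7-base seed match GTCTTCC in capitals, searched on the transcript strand only.

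mmu-miR-7a-5p: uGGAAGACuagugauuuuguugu
Oip5os1 site at base 2952: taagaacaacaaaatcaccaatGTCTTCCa
Cdr1os site at base 8895: tatgtcttccaacaacctcagaGTCTTCCa
Cdr1os site at base 10101: ccaagtcttcccgaaaatccaaGTCTTCCc

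The longest annotated Cdr1os transcript, of 19658 bases, held 125 such matches, or 6.36 per kb, against 0.103 per kb over all lncRNA transcripts of the annotation. Of these, 123 lay between bases 8500 and 12000, and 86 of the 124 neighbouring pairs were 18 bases apart. Oip5os1 held 2 matches in 8300 bases. In the alignment of the site at base 2952 with miR-7a-5p, 22 bases paired, against 8 at the other match and at most 18 at any match in Cdr1os.

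**Figure D1:**
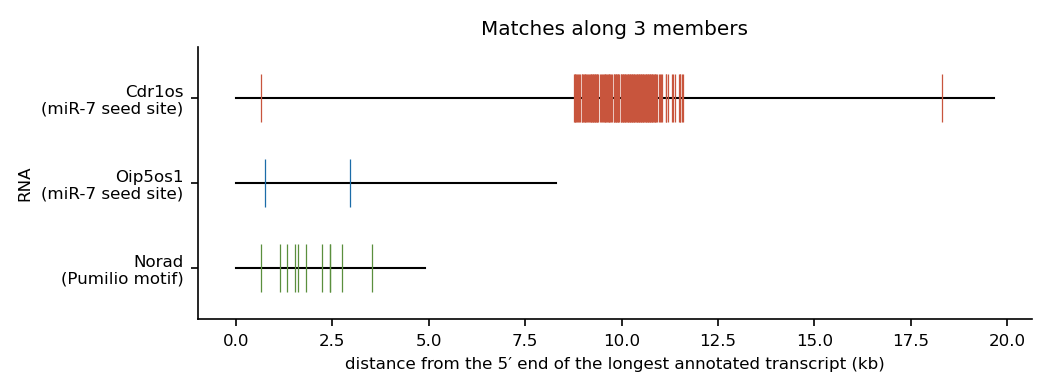
Positions of motif matches along the longest annotated transcripts of Norad, Oip5os1 and Cdr1os, with the distance from the 5′ end in kb on the x axis and 1 vertical line for each match. Norad held 11 Pumilio motifs, Oip5os1 2 miR-7 seed matches and Cdr1os 125, of which 123 sat in a dense block.

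Norad, on chromosome 2, carried the Pumilio motif TGTANATA 11 times in 4915 bases, or 2.24 per kb against 0.0943 per kb over all lncRNA transcripts. A pair of these matches is shown with the motif in capitals.

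Norad match at base 1336: cttttcttTGTACATAgtgtatgt
Norad match at base 1523: gactgctgTGTATATAgtggacaa

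Gm7292, an unspliced gene on chromosome 6, held 9 of the same motif in 2527 bases, and 77.5% of its 50-base words also occurred in Norad. Gm27000, an unspliced gene of 842 bases on chromosome X, shared 93.7% of its 50-base words with Meg3. Erdr1, at the end of chromosome X, shared 59.7% with Gm47283, which lies at the end of chromosome Y, and 40.5% of the words of Gm47283 occurred in Erdr1. The older annotation used for this search types both Erdr1 and Gm47283 as protein-coding. Reads from such stretches cannot be assigned to 1 copy with certainty, so the levels of these 4 genes are uncertain, and Norad, 39.5% of whose words lay in Gm7292, is affected too. Smaller shares of words found in other genes put a like caution on 1500004A13Rik (33.5%), Bc1 (31.1%), Rmst (30.0%) and Miat (24.2%). Whether multi-mapping reads were counted is not given in the sources used here.

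Bc1 is a short cytoplasmic RNA of neurons that represses translation in dendrites. Its whole sequence is shown because it is the shortest member, with the longest run of A, 23 bases from base 77 to base 99, in capitals.

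Bc1: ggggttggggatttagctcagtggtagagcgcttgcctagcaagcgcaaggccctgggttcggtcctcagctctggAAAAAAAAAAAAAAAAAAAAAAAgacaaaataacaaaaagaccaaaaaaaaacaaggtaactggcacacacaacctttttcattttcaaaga

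The microRNA hosts are shown by their best known products, each with the seed in capitals. Gm3764 contains Mir9-1. Mir100hg and Mir99ahg are paralogous clusters, whose miR-100-5p and miR-99a-5p share the seed ACCCGUA and which both yield miR-125b-5p. A330023F24Rik contains Mir29b-2 and Mir29c, whose 3p products share the seed AGCACCA.

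mmu-miR-9-5p: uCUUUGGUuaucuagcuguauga
mmu-miR-100-5p: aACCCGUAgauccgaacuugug
mmu-miR-99a-5p: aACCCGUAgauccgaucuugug
mmu-miR-125b-5p: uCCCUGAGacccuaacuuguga
mmu-miR-29b-3p: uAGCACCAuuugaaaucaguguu
mmu-miR-29c-3p: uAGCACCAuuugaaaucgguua

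The RNA measured here is the host transcript, not the mature microRNA.

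By mean normalized count, which grows with transcript length, Malat1 led the members with 32248 on chow and 33443 on HFD. Norad followed with 27425 and 30396, and Gm15564 with 20636 and 21595. These 3 genes held 58.6% of the members' summed count on chow and 59.1% on HFD. The members together made up 0.750% of all listed counts on chow and 0.744% on HFD. Oip5os1 had 3083 and 2858, Gm7292 2754 and 3284, and Snhg14 2742 and 2683. Neat1 had 2498 and 2152, Cdr1os 2207 and 2119, Firre 1910 and 1988, and Gm47283 1659 and 2528. The median member stood at 1181 on chow and 1196 on HFD. The 3 members just inside the threshold on chow were Gm9866 with 505, Gm33989 with 510 and B830012L14Rik with 514; the nearest lncRNAs outside it were 1700047M11Rik and Gm44644, both with 468, and 2010204K13Rik with 462.

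Per kb of exon, which allows levels to be compared between genes, the order was different. Gm15564, with 0.821 kb of exon, stood first with 25136 normalized counts per kb on chow and 26303 on HFD. Bc1 came next with 7138 and 10690, then Norad with 5580 and 6184 and Malat1 with 4618 and 4789. Erdr1, Gm27000, Gm47283, Gm7292 and B230209E15Rik also exceeded 1000 per kb on both diets, and every other member had 428 or less. Long transcripts stood lower in this order. Neat1, with 20.8 kb of exon, had 120 and 104 per kb, Cdr1os 91.8 and 88.2, Snhg14 105 and 103, and Mir100hg 66.2 and 65.0. Gm33989 was lowest with 30.8 and 33.2. The exon lengths come from an older annotation than the counts and add all annotated exons of a gene, so they are approximate for genes with many isoforms. The diets were normalized separately, and the spread between mice is not known, so the order of close neighbours is not established.

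**Figure D2:**
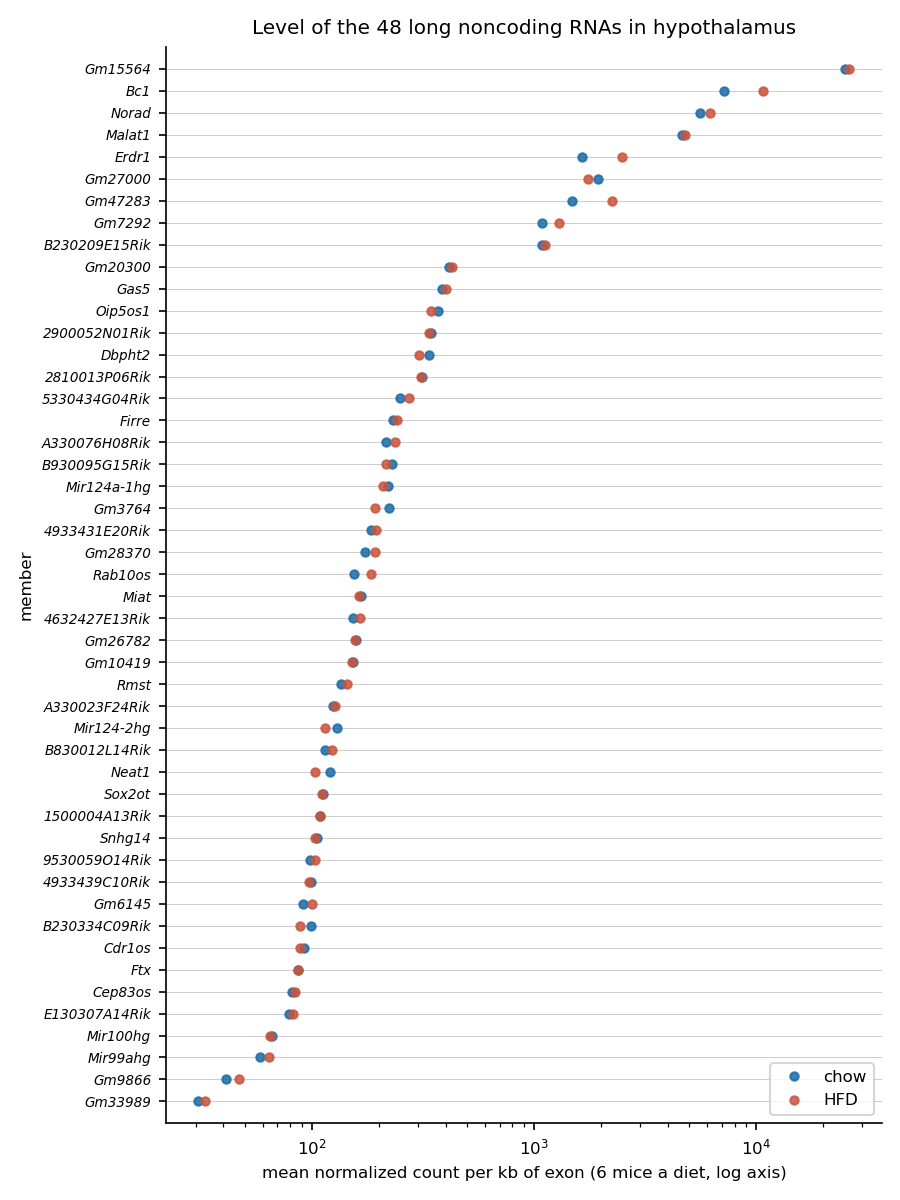
Mean normalized count per kb of exon on a log axis for each of the 48 members, with 1 point per diet (blue chow, red HFD, each the mean of 6 mice). Gm15564 stands first with 25136 on chow and 26303 on HFD, 9 members exceed 1000 and the lowest, Gm33989, lies near 30.8 on chow.

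The promoters of the leading genes differed in composition. RefSeq promoters (build GRCm38.p6, 250 bases before to 50 after the start) were found for 34 of the 48 members, with a median GC content of 54.0% against 52.7% over 27025 genes. The TATA-box letters TATAAA occurred in 2 of the 34 (5.88%, against 14.2% of all promoters), CCAAT in 14 (41.2% against 37.9%) and the GC-box letters GGGCGG in 14 (41.2% against 35.9%), both strands searched. The Malat1 promoter held none of the 3 motifs and is shown in lower case throughout; in that of Gm15564, with 76.7% GC, the reverse complement of the GC box stands 2 times, in capitals.

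Malat1, chr19:5802623-5802922, minus strand: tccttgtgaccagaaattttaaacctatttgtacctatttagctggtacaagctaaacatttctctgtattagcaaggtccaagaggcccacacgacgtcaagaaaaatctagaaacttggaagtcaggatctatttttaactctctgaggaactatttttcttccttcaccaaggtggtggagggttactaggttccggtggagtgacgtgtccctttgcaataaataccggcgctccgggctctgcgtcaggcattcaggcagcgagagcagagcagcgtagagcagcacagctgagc
Gm15564, chr16:35983280-35983579, minus strand: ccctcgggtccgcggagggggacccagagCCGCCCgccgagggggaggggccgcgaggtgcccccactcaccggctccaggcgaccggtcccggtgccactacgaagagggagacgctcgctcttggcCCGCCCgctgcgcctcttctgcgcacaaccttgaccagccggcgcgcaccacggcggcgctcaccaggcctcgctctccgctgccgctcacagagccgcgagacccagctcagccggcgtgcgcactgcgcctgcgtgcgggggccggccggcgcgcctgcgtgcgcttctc

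Between genotypes, most members stood close together on both diets, and few differences were large. Past a 1.2-fold difference, 3 of 48 members (6.25%) were found on chow, where 1.66% of the 7283 genes of any type with the same minimum level passed. Gm47283 and Erdr1 were higher in Gpr75-/- mice (0.590% of genes were) and Gm3764 was lower (1.07% of genes were). On HFD 2 members (4.17%) passed, against 0.934% of those genes. Both, Gm47283 and 2900052N01Rik, were higher (0.206% of genes were), and no member was lower (0.728% of genes were). The rounding intervals of both, 1.16- to 1.26-fold for Gm47283 and 1.18- to 1.26-fold for 2900052N01Rik, reach below 1.2, so with the whole interval past 1.2 there were 0 calls on HFD and 0 on both diets, and 2 on chow, where Gm3764 was lost. Gm47283 alone passed the same way on both diets, where 0.0687% of the genes were higher and 0.124% lower. The median difference over the members was 0.00 on both diets, and so was that of the 7283 genes.

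A looser count used every difference larger than the rounding, which takes at least 2 steps of 0.01 in the deposited columns. By it, 9 members were higher and 17 lower in Gpr75-/- mice on chow (18.8% and 35.4% of the members), against 19.4% and 18.5% of all genes at that level. On HFD 11 were higher and 6 lower (22.9% and 12.5%), against 17.1% and 14.8%. The side that held more members was therefore the lower one on chow and the higher one on HFD. On both diets 4 members were higher beyond rounding (4.54% of genes were), 3 were lower (5.70% of genes were) and 2 pointed in opposite directions (4.34% of genes did). The 14 members within rounding on both diets included Malat1, Norad, Firre, Ftx, Gas5, Rmst, Mir100hg and Rab10os.

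**Figure D3:**
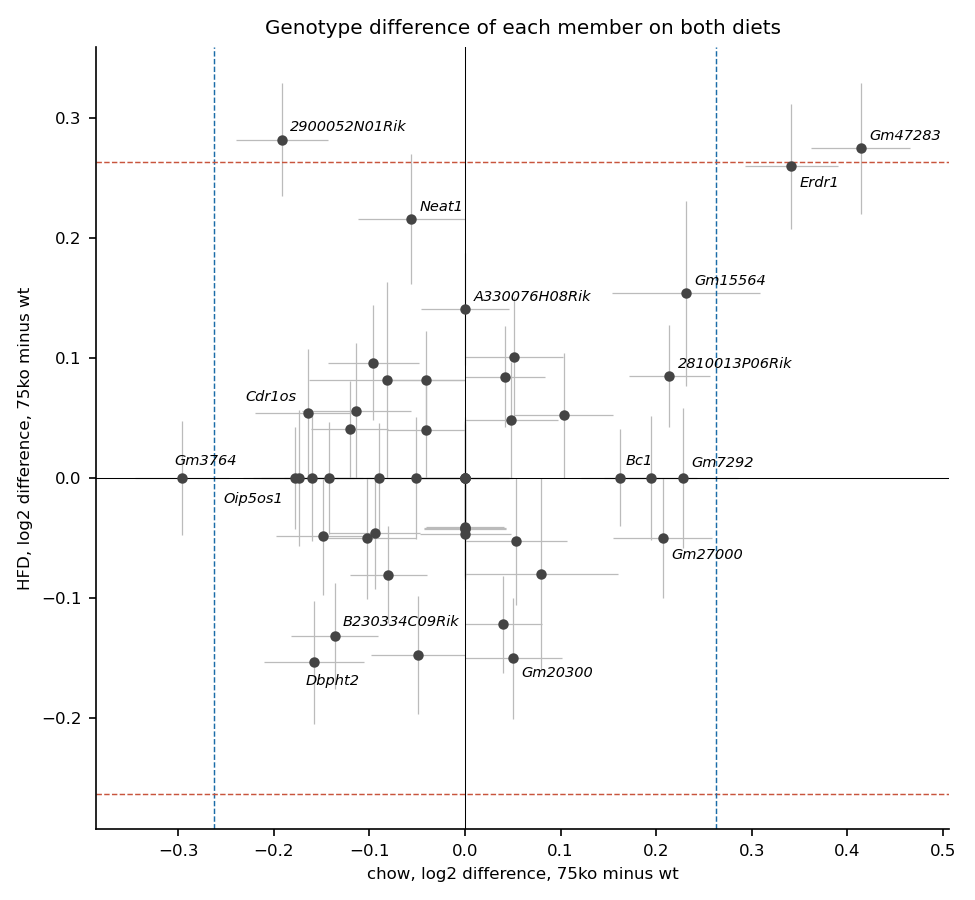
Genotype difference (75ko minus wt, log2) of each of the 48 members on chow (x axis) and HFD (y axis). Bars give the interval that rounding allows, not a replicate error, and dashed lines mark 1.2-fold; Gm47283 lies past both lines, Erdr1 just under the HFD line, and Gm3764 and 2900052N01Rik lie past 1 line each.

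Gm47283 (chrY:90796007-90827734) and Erdr1 (chrX:168792655-168802277), the near copies at the ends of the sex chromosomes, had the largest differences of the 48 members on chow. Gene positions here and below are those of the files, in build GRCm39. Gm47283 stood at 1879 normalized counts in Gpr75-/- and 1410 in WT mice on chow, a difference of 0.41 with a rounding interval of 1.29- to 1.38-fold. On HFD it stood at 2599 and 2149, 1.21-fold higher with an interval of 1.16 to 1.26. Erdr1 stood at 1362 and 1075 on chow, 1.27-fold higher with an interval of 1.22 to 1.31, and at 1923 and 1607 on HFD, a difference of 0.26 with an interval of 1.15- to 1.24-fold. Since they share sequence, the pair cannot be read as 2 separate observations. The other 2 members with a near copy were also higher on chow and not on HFD. Gm7292, the Norad copy, stood at 2981 and 2545 on chow and at 3295 in both groups on HFD, while Norad stood at 27615 and 26129 on chow and 29321 and 31001 on HFD. Gm27000, the Meg3 copy, stood at 1746 and 1513 on chow and 1446 and 1498 on HFD, while Meg3 stood at 55303 and 58753 on chow and at 49093 in both groups on HFD. The 4 members that share over 40% of their words were higher beyond rounding on chow (19.4% of genes were), with a median of 0.28, against 0.13 on HFD. They were grouped after their values were seen, and Norad, just under that limit with 39.5%, was within rounding on chow.

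The spread between mice can be read in part from the same columns, because the log of a mean exceeds the mean of logs by more when mice differ more. The excess was counted from its median over genes with a mean of at least 500, so the spread common to most genes is left out. The standard deviations and standard errors below leave it out too, and the full ones would be larger by an unknown amount. On HFD this excess was 0.097 for Erdr1, 0.091 for Gm47283 and 0.058 for Bc1, each above 99.9% of the 7283 genes. If the columns are means of logs, it corresponds to a standard deviation between mice of about 0.65, 0.63 and 0.50 on the log2 scale, and the standard error of a difference of 3 against 3 mice would be about 0.53, 0.51 and 0.41. The HFD differences of Erdr1 and Gm47283, 0.26 and 0.27, were smaller than these errors. On chow the excess of Erdr1, 0.038, corresponds to a standard error of about 0.33 beside a difference of 0.34. Of the other members, Norad on chow and Gm15564 and Oip5os1 on HFD passed the 99th percentile of the excess. That percentile corresponds to a standard deviation of about 0.34 on chow and 0.32 on HFD. Rounding alone could give an excess as large as that of each of these genes, so their spread was not resolved. Smaller spreads could not be resolved from the rounding either. Any standard deviation up to about 0.34 on chow and 0.32 on HFD remains possible for the other members.

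**Figure D4:**
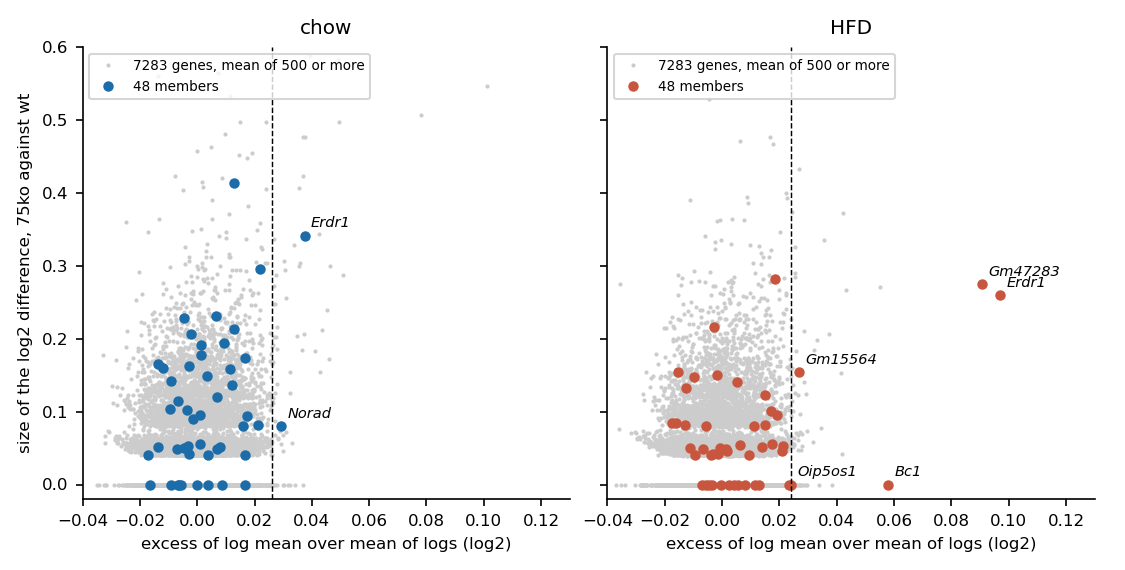
Size of the genotype difference (log2) against the excess of the log mean over the mean of logs, by diet. The 48 members are coloured and all genes with a mean of 500 or more are grey. The excess is counted from its median over genes at that level. A larger excess means more spread between mice or an effect of rounding, and genes outside the axes are not drawn. The dashed line is the 99th percentile; Erdr1 and Gm47283 lie far beyond it on HFD, with Bc1 next.

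Among the other members at the top of the difference list, Gm15564 and 2810013P06Rik were higher in Gpr75-/- mice on both diets. Gm15564 (chr16:35787122-35803600) stood at 22185 and 18899 on chow, 1.17-fold higher with a rounding interval of 1.11 to 1.24. On HFD it stood at 22322 and 20067, 1.11-fold higher with an interval of 1.05 to 1.17. Its excess of the log mean on HFD, 0.027, could come from rounding alone, so its spread between mice was not resolved. Taken at face value, that excess corresponds to a standard error of about 0.28, larger than its difference of 0.15. It lies opposite the protein-coding genes Kpna1 and Parp9, of which Kpna1, an importin, stood at 3507 and 3231 on chow and 3881 and 4046 on HFD. 2810013P06Rik, on chromosome 8 and annotated with a bidirectional promoter, stood at 713 and 615 on chow and at 693 and 653 on HFD.

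Lower on both diets were Dbpht2, B230334C09Rik and Gm33989. Dbpht2 (chr12:74343442-74348782) stood at 1684 in Gpr75-/- and 1879 in WT mice on chow and at 1551 and 1725 on HFD, differences of -0.16 and -0.15. B230334C09Rik (chr3:157772823-157781749), opposite Lrrc40, stood at 832 and 914 on chow and at 757 and 830 on HFD, with differences of -0.14 and -0.13. Lrrc40 had differences of 0.04 and 0.00. Gm33989 differed by -0.08 on each diet. In these 3 genes the difference had nearly the same size on both diets, and in none did it reach 1.2-fold.

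For 2 members the genotypes stood in opposite order beyond rounding on both diets, with the larger difference at 2900052N01Rik, on chromosome 9 (chr9:46824791-46838664). It stood at 1040 in Gpr75-/- and 1188 in WT mice on chow, a difference of -0.19, and at 1180 and 971 on HFD, a difference of 0.28. The Gpr75-/- value was thus the lower one on chow and the higher one on HFD. The other, 4632427E13Rik, had differences of -0.10 and 0.10. Whether the genotype difference depends on diet was not tested for either gene.

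**Figure D5:**
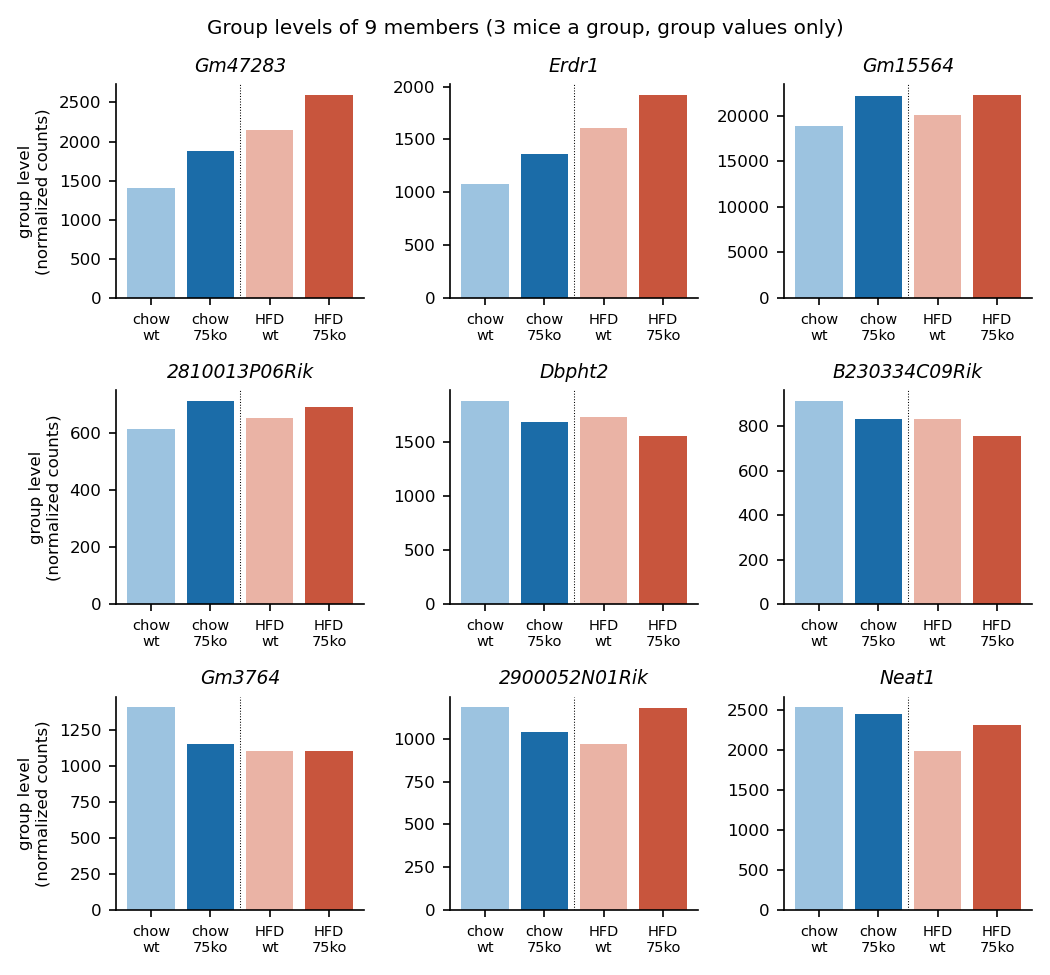
Group levels (normalized counts, axes from 0) of 9 members in WT (pale) and Gpr75-/- (dark) mice on chow (blue) and HFD (red), with 3 mice behind each bar and no replicate error. Gm47283, Erdr1, Gm15564 and 2810013P06Rik are higher in 75ko on both diets, Dbpht2 and B230334C09Rik lower on both, and 2900052N01Rik is lower on chow and higher on HFD.

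Of the nuclear RNAs Malat1, Neat1 and Miat, Neat1 (chr19:5874736-5895506) differed most. It stood at 2317 in Gpr75-/- and 1995 in WT mice on HFD, 1.16-fold higher with a rounding interval of 1.12 to 1.21, and at 2448 and 2545 on chow, within rounding. Neat1 lies 22.035 kb from Malat1 on chromosome 19. Malat1 stood at 30880 and 32674 on chow and at 34694 and 32789 on HFD, within rounding on both diets. Miat, a nuclear RNA of neurons, was higher by 0.10 on HFD, with 1551 and 1446, and stood at 1568 and 1513 on chow. Firre, which shapes nuclear architecture from chromosome X, and Ftx, of the X inactivation centre, were within rounding on both diets, with 1950 and 1879 and with 886 in both groups on chow.

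The miR-7 pair was lower on chow. Oip5os1 (chr2:119424778-119437983) stood at 2864 in Gpr75-/- and 3231 in WT mice, a difference of -0.17 with an interval of 0.851- to 0.923-fold, and Cdr1os (chrX:60159984-60247391) at 2101 and 2355, a difference of -0.16 with an interval of 0.859- to 0.927-fold. On HFD Oip5os1 stood at 2810 in both groups and Cdr1os at 2149 and 2070, within rounding. On chow 7.07% of the 7283 genes differed by at least as much as Oip5os1 in either direction and 8.84% by as much as Cdr1os. The values are of genes; the circular Cdr1as RNA was not measured on its own, and reads of Cdr1os and Cdr1 may not be told apart.

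Of the 13 microRNA hosts, 2 were higher and 5 lower beyond rounding on chow, where 19.4% and 18.5% of all genes at that level were. The 2 higher ones were 5330434G04Rik and Gm27000, the Meg3 copy, whose level is uncertain. On HFD 1 of the 13 hosts was higher, none lower and 12 within rounding. Among those genes 17.1% were higher and 14.8% lower on HFD. Gm3764 (chr3:88114120-88137266), which contains Mir9-1, had the largest difference of the hosts lower on chow. It stood at 1149 in Gpr75-/- and 1410 in WT mice on chow, 0.815-fold with an interval of 0.787 to 0.843, and at 1105 in both groups on HFD. Its interval on chow reaches across 1.2-fold, and its spread between mice could not be resolved. The hosts of miR-124, a microRNA of neurons, were also lower on chow: Mir124-2hg stood at 735 and 832, and Mir124a-1hg at 1007 and 1075. On HFD Mir124-2hg stood at 693 in both groups and Mir124a-1hg at 971 and 1002. Mir99ahg stood at 806 and 858 on chow and at 911 in both groups on HFD, while its paralogue Mir100hg, with the same miR-100 family seed, stood at 1568 and 1625 and at 1551 in both groups. Sox2ot, which overlaps Sox2, stood at 1229 and 1362 on chow and at 1262 and 1305 on HFD; Sox2, a factor of neural progenitors, stood at 782 and 944 and at 830 and 856. Rmst, a neural RNA that works with Sox2, stood at 1007 in both groups on chow and 1069 in both on HFD. Hosts with values near equal between genotypes also included A330023F24Rik, with 1188 and 1149 on chow.

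Snhg14 and Gas5 are the 2 small nucleolar RNA hosts. Snhg14, the long transcript that carries 208 annotated small nucleolar RNAs and runs antisense to Ube3a in the Prader-Willi and Angelman region of chromosome 7, stood at 2646 in Gpr75-/- and 2864 in WT mice on chow, a difference of -0.11, and at 2702 and 2599 on HFD. Gas5, with 10 small nucleolar RNAs, stood at 1461 in both groups on chow and 1498 in both on HFD. Farther along chromosome 7 lie B230209E15Rik, 1554 kb from Snhg14, and A330076H08Rik, another 315 kb away. B230209E15Rik stood at 1811 and 2024 on chow, a difference of -0.16, and at 1923 in both groups on HFD. A330076H08Rik, with 2 miR-344 genes, stood at 944 in both groups on chow and at 1105 and 1002 on HFD, a difference of 0.14. They were grouped by place after their values were seen.

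Bc1, described above by its sequence, stood at 1272 in Gpr75-/- and 1111 in WT mice on chow, a difference of 0.19, and at 1725 in both groups on HFD, where its spread was large. Cep83os, annotated with a bidirectional promoter, stood at 564 and 504 on chow and at 550 in both groups on HFD. Rab10os stood at 944 in both groups on chow and 1142 in both on HFD. Among the 14 members that lie opposite a protein-coding gene, 1 was higher and 5 were lower beyond rounding on chow (19.4% and 18.5% of genes were), and 3 were higher and 2 lower on HFD (17.1% and 14.8% of genes were). The most negative differences on HFD beside those of Dbpht2 and B230334C09Rik were at Gm20300, with 1397 in Gpr75-/- and 1551 in WT mice, 4933431E20Rik, with 1262 and 1397, and Gm9866, with 550 and 599. On chow Gm20300 and Gm9866 were slightly higher, by 0.05 and 0.04, and 4933431E20Rik lower by a difference of -0.05, all within rounding.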

How the data were processed

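Hypothalamus RNA of 12 mice was made into libraries with the SMART-Seq mRNA LP kit and sequenced as paired reads. Per the labels, the authors' processing used STAR, featureCounts, StringTie and DESeq2 with build GRCm39; versions, strand setting and treatment of multi-mapping reads are not given in the sources used here. The deposited mean normalized counts (a signal over the 6 mice of a diet) and the deposited group columns on a log2 scale were used. The authors' fold changes, standard errors, test statistics and p-values were not used, so no test of a difference could be run and design tests that need single mice were not run.

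Group columns, whose scale no source used here states, were read as log2 of a mean log2 level: after raising 2 to them they followed the log2 mean with a slope of 1.00 in both tables. Differences were taken between 75ko and wt, with rounding bounds for steps of 0.01, and called past 1.2-fold; the calculation was tested on simulated data. Annotation (48 of 48 IDs matched) was GENCODE vM21, and sequences came from it and from RefSeq GRCm38.p6. File coordinates were not mixed with these. Named genes were the 10 highest members, the 5 largest differences each way per diet, those past the fold on both diets, the threshold neighbours and members of known classes. Members and lists were chosen with earlier results of these data known. Python 3.11.15 with pandas 2.3.3 and Biopython 1.88 was used.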

Additional observations from a re-analysis of the deposited data

How the results depend on the processing

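With a fold of 1.1 in place of 1.2, 17 members passed on chow, 9 on HFD and 4 in the same direction on both diets, against 3, 2 and 1 in the report; with a fold of 1.5, 0 passed in each. A minimum mean of 250 gave 5 on chow. Settings chosen after seeing the data were the whole rounding interval past 1.2, which left 2 on chow (Gm47283 and Erdr1, without Gm3764), 0 on HFD and 0 on both diets, and leaving out the 4 near copies (Gm47283, Erdr1, Gm7292 and Gm27000), which left 1 on chow (Gm3764), 1 on HFD (2900052N01Rik) and 0 on both. Centring on the median of all genes or of protein-coding genes could not change a count, since these medians were 0.00 on both diets. The 48 members became 31 with a minimum of 1000 and 89 with 250. The median difference on chow was -0.0491 with a minimum of 1000. These shifts follow from the settings themselves, which change the fold or the genes counted. No paired analysis was possible because the tables hold group values and no single mice, and leaving out each mouse could not be run for the same reason. Depth per mouse is unknown, and rounding hides differences under about 0.04 to 0.08 on the log2 scale.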
